A study of Mus musculus with 36 samples.

Results

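MiR-3091 is a mouse microRNA whose hairpin lies in an intron of Rps21, the gene of a protein of the small ribosomal subunit. The members were the rows whose name begins with mmu-miR-3091-, and 1 of the 469 miRNAs in the table met this rule, the 3′ arm miR-3091-3p. No row of the 5′ arm was analysed here. MiR-3091-3p was selected on its measured difference between the lines at 24 h, also in relation to 0 h, so its values at 0 h and 24 h are given as a description and were not tested.

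The values come from small RNA sequencing of B3, a mouse pre-B cell line, in 36 samples. The Ikaros line carried HA-Ikaros-ERt2-IRES-GFP, in which Ikaros, a transcription factor of lymphocytes, is joined to a hormone-binding domain and is held outside the nucleus until 4-hydroxy-tamoxifen (4-OHT) binds. The Control line carried ERt2-IRES-GFP, which lacks Ikaros. Both constructs were brought in by a retroviral (MSCV) vector and cells were sorted for GFP, so the protein is made from a viral promoter in a single cell line. For each line there were 3 samples at every time point (0, 2, 6, 12, 18 and 24 h). By the labels 4-OHT was present at 0.5 uM throughout, while the study's methods call the 0 h cells untreated. Culture batches 1, 2 and 3 gave the samples of 2 h to 24 h in both lines, and batches 4, 5 and 6 those of 0 h. In bulk RNA such as this, fewer cells with a miRNA and less of it per cell cannot be told apart.

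A miRNA is cut from a hairpin in a longer transcript, first in the nucleus by Drosha and then in the cytoplasm by Dicer, and one arm of the resulting duplex is kept in an Argonaute protein. Bases 2 to 8 of the mature strand, the seed, pair with target mRNAs. When the hairpin lies in an intron of a protein-coding gene, the miRNA and the mRNA can stem from the same primary transcript. For some intronic miRNAs, called mirtrons, splicing replaces the cut by Drosha, at both ends of the hairpin or, in tailed mirtrons, at one end. Ribosomal protein genes are transcribed strongly in dividing cells, and pre-B cells stop dividing as they mature, a step in which Ikaros takes part.

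The mature sequences of the measured arm and of its partner are shown because they set what the row holds, and that of miR-2861 because it has the same seed as the measured arm. They are from RefSeq (GRCm38.p6), with the seed in capitals.
mmu-miR-3091-3p: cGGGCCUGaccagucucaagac
mmu-miR-3091-5p: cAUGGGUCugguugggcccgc
mmu-miR-2861: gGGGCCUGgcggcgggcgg

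MiR-3091-3p has 22 bases and lies at chr2:180257580-180257601 on the plus strand, and miR-3091-5p has 21 bases and lies at chr2:180257547-180257567. A mature sequence was found for 391 of the 469 miRNAs by name. None of the others among the 391 shared the seed of miR-3091-3p or that of its 5′ partner. Among the 1679 mature mouse miRNAs of the RefSeq table, 1 other, miR-2861, had the seed of miR-3091-3p, and it has no row among the 469. The G and C content of miR-3091-3p was 63.6%, against a median of 50% over the 391, and 26 of them (6.65%) had a higher content. The authors corrected the values for GC content, and the part of that step in the values of miR-3091-3p was not tested.

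The hairpin Mir3091 spans 76 bases, chr2:180257536-180257611, inside Rps21 (chr2:180257377-180258445, plus strand, GRCm38). It is in intron 1 (chr2:180257448-180257620, 173 bases), which separates a noncoding first exon from the exon with the start codon. The hairpin begins 88 bases after the start of the intron and ends 9 bases before its end, and the last base of miR-3091-3p is 19 bases from the end of the intron. Only the 3′ end of the hairpin is thus close to a splice site. In the fold of lowest predicted energy (RNAfold, -46.7 kcal/mol), 18 of the 22 bases of miR-3091-3p paired with the 5′ arm, the 7 seed bases among the paired ones. The map of the locus shows these positions.

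**Figure D1:**
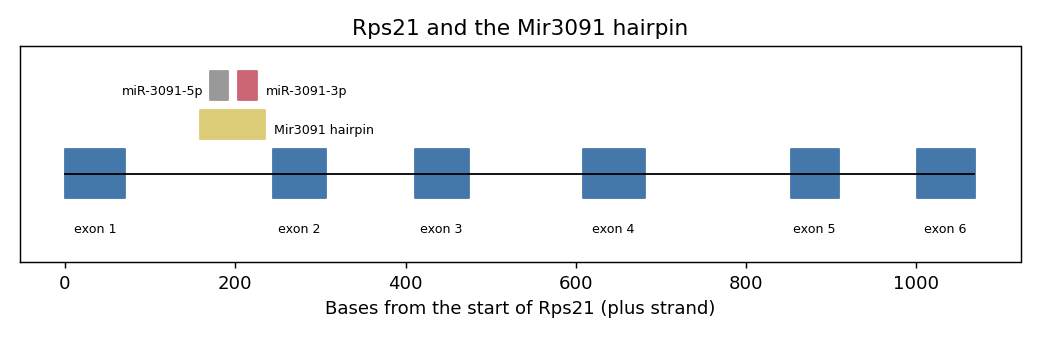
Map of Rps21 by distance in bases from the start of the gene: blue boxes are the exons, the yellow box the Mir3091 hairpin, and the grey and red boxes its 5′ and 3′ arms. The hairpin fills the last part of intron 1 and stops 9 bases before exon 2.

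In the Control line, miR-3091-3p had normalised log2 values of 4.39, 3.88 and 4.94 at 0 h in replicates 1, 2 and 4. At 2 h they were 3.72, 3.05 and 3.37, and at 6 h 4.11, 3.93 and 3.60. Of these Control groups the samples of 2 h were all below those of 0 h, and overlapped those of 6 h. At 12 h the values were 3.88, 1.78 and 4.05, and replicate 2 stood more than 2 units below both others. At 18 h they were 4.47, 4.17 and 3.85, and at 24 h 5.34, 4.41 and 4.82. The 24 h samples were all above the 2 h samples.

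In the Ikaros line the values at 0 h were 4.37, 2.93 and 3.66. At 2 h they were 4.82, 3.03 and 3.91, a spread of nearly the same width. At 6 h they were 3.72, 2.74 and 2.71, and at 12 h 3.44, 3.25 and 2.71. At 18 h they were 2.44, 1.66 and 1.78, and each of these lay below every Ikaros sample of 0 h to 12 h. At 24 h they were 1.43, 0.90 and 1.13, below every other sample of either line.

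**Figure D2:**
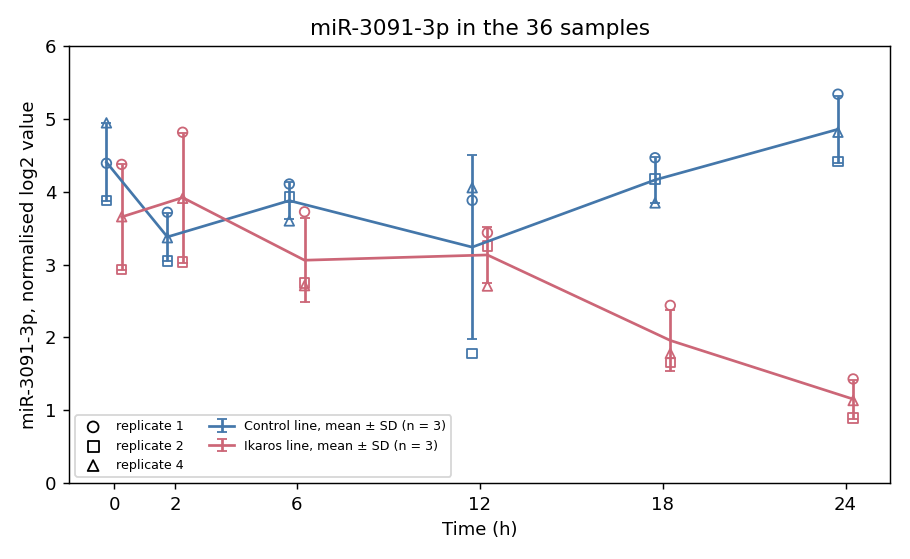
Normalised log2 values of miR-3091-3p (y axis) against time in hours (x axis) in the Control line (blue) and the Ikaros line (red). Open symbols are the 3 replicates, and lines join the means ± SD. The lines overlap up to 12 h, and at 18 h and 24 h every Ikaros sample lies below every Control sample.

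Set in order by group mean, the levels ran from 4.86 ± 0.46 (SD, n = 3) in the Control line at 24 h down to 1.15 ± 0.27 in the Ikaros line at 24 h. Control at 0 h (4.40 ± 0.53) and at 18 h (4.16 ± 0.31) came next. They were followed by Ikaros at 2 h (3.92 ± 0.89), Control at 6 h (3.88 ± 0.26), Ikaros at 0 h (3.65 ± 0.72) and Control at 2 h (3.38 ± 0.33). Below these were Control at 12 h (3.24 ± 1.26), Ikaros at 12 h (3.13 ± 0.38), Ikaros at 6 h (3.06 ± 0.58) and Ikaros at 18 h (1.96 ± 0.42). In 9 of the 11 steps of this order the gap was smaller than the larger SD and the samples overlapped. The exceptions were the step of 1.10 from Ikaros at 6 h to Ikaros at 18 h and the step of 0.80 from Ikaros at 18 h to Ikaros at 24 h.

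MiR-3091-3p was a miRNA of middle rank in most samples. Its mean over the 36 samples was 3.40, and 207 of the 469 miRNAs had a lower mean. Counted from the lowest, it ranked 185th to 269th in the samples of 0 h, 97th to 162nd in the Ikaros samples of 18 h, and 82nd, 23rd and 39th in those of 24 h. The last 3 samples held it 0.49 to 1.11 log2 units above the lowest miRNA of the same sample, and the other samples at least 1.22 above it. The table gives no read counts, so the number of reads behind these values is unknown. The group means of miR-3091-3p spanned 3.70 log2 units, and 3 miRNAs spanned more, against a median of 1.00 over all miRNAs. This span includes the values that led to its selection.

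Its spread between replicates was also wide. The pooled SD within groups was 0.61, against a median of 0.36 over all miRNAs and of 0.39 over the 100 miRNAs nearest to it in mean level, of which 7 had a larger SD. Without Control 12 h replicate 2 the pooled SD was 0.50. Culture batch 1 had the highest value of the 3 samples in 9 of the 10 groups of 2 h to 24 h, and batch 2 the lowest in 6 of them. Control 12 h replicate 2 was low in other miRNAs too: 34 miRNAs were more than 1 log2 unit below both other replicates of that group, against a median of 3 over the 36 samples. Without it the Control mean at 12 h was 3.97 in place of 3.24, which moves that group from 8th to 4th in the order above.

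The cell type was checked through miRNAs known from the blood lineages. All 6 lymphoid miRNAs of the list had a row, and their levels were far apart. MiR-181a-5p, abundant in lymphocyte precursors, was the highest, between 17.53 and 18.71, and carries most of their summed level. MiR-181b-5p was at 14.43 to 15.63, miR-142a-5p at 13.72 to 15.33, miR-142a-3p at 12.08 to 14.59 and miR-155-5p at 10.16 to 11.17. MiR-150-5p was at only 3.07 to 4.62, below miR-9-5p and miR-126a-3p of the list of other tissues. Of the 9 miRNAs typical of other tissues, those of liver, muscle and red cells and miR-124-3p of neurons had no row, and the 3 others were miR-9-5p (12.69 to 13.87), miR-126a-3p (5.30 to 7.62) and miR-223-3p (0.63 to 4.58). The summed level of these 3, nearly all miR-9-5p, was 12.96 to 13.88 in Control and 12.71 to 13.73 in Ikaros samples, and that of the 6 lymphoid miRNAs 18.23 to 18.95 and 17.93 to 18.72. Singly, miR-126a-3p, known from endothelium, was higher in the Ikaros line by 1.41 at 2 h (SE 0.18, limma adjusted p = 1.1e-06) and by 0.96 at 18 h (SE 0.18, adjusted p = 8.8e-05). The line differences of miR-223-3p, a myeloid miRNA, were 1.02 and 1.00 at these times (SE 0.45, adjusted p = 0.147 and 0.0962) and those of miR-9-5p -0.02 and -0.13 (SE 0.21, adjusted p = 0.966 and 0.694), none of which passed. Their part in the level of miR-3091-3p was not tested.

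The first question was when the lines part. Differences are Ikaros minus Control on the log2 scale, tested with limma over all 469 miRNAs with Benjamini-Hochberg adjustment, and a miRNA was called when its adjusted p was under 0.05. At 0 h, which was not tested, the difference was -0.75 ± 0.66 (SD of 3 same-numbered pairs), with pairs at -0.02, -0.95 and -1.29. At 2 h the Ikaros line was 0.54 higher (SE 0.46, adjusted p = 0.558), with pairs at 1.10, -0.02 and 0.54. At this time 53 of 469 miRNAs (11.3%) were called, and miR-3091-3p was not among them. Its 95% interval at 2 h ran from -0.41 to 1.49, which includes differences in either direction.

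At 6 h all 3 pairs were negative, at -0.38, -1.18 and -0.89, and the difference of -0.82 (SE 0.46, 95% interval -1.77 to 0.13, adjusted p = 0.285) did not pass, where 71 miRNAs (15.1%) did. At 12 h the pairs were -0.44, 1.47 and -1.35, and the difference was -0.11 (SE 0.46, adjusted p = 0.893), where 102 miRNAs (21.7%) were called. The positive pair is that of Control 12 h replicate 2. Without this library the difference at 12 h was -0.84 (SE 0.43, adjusted p = 0.175), and 89 miRNAs were called. With and without it, the call at 12 h was not made.

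At 18 h miR-3091-3p was lower in the Ikaros line, with a difference of -2.20 log2 units (SE 0.46, 95% interval -3.15 to -1.26, adjusted p = 0.00044), which is 4.60-fold on the scale of the normalised values. The pairs were -2.03, -2.52 and -2.07, and the lines did not overlap. Among the 469 miRNAs 140 (29.9%) were called at 18 h, 61 of them higher and 79 (16.8%) lower in the Ikaros line. With the median of each sample subtracted these were 86 higher and 56 lower, and the difference of miR-3091-3p was -2.03, against a shift of the median of all miRNAs from -0.01 to 0.16. In the values as deposited only 3 miRNAs had a more negative difference. At 24 h, not tested, the pairs were -3.91, -3.52 and -3.68 and the mean difference was -3.70, or 13.0-fold. The samples of 18 h came from the same culture batches as those of 24 h. By the study's methods the expanded cells of each line were split into a flask for each induction time. The samples of 18 h and 24 h are thus separate flasks and libraries, but not independent culture batches. By the design the study drew, Control samples of 2 h to 18 h were mostly sequenced apart from the Ikaros samples, whereas Control samples of 0 h and 24 h were sequenced with them, and the part of the sequencing batch in the line differences at 2 h to 18 h was not tested. The plot of the line difference gives each pair.

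**Figure D3:**
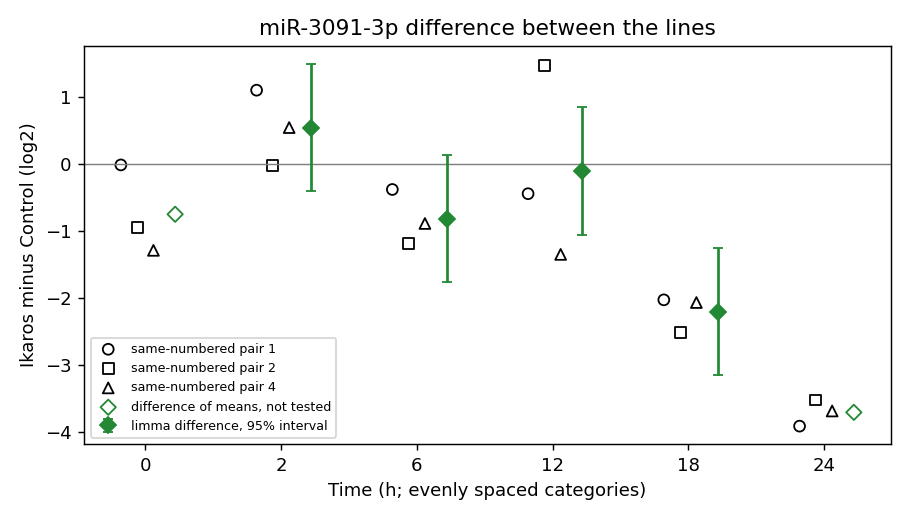
Difference of miR-3091-3p between the lines, Ikaros minus Control in log2 units (y axis), at each time (x axis, evenly spaced). Black symbols are the 3 same-numbered pairs, filled green diamonds the limma difference with its 95% interval, and open diamonds the untested difference of means at 0 h and 24 h. The intervals at 2, 6 and 12 h include 0, and that at 18 h does not.

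The second question was how miR-3091-3p changed within each line. The study mentions a sequencing batch effect among times of the Ikaros series, corrected with ComBat, and its part in these changes was not tested. From 2 h to 18 h miR-3091-3p fell by 1.96 log2 units in the Ikaros line (SE 0.46, 95% interval -2.91 to -1.01, adjusted p = 0.00483), or 3.89-fold. Each culture batch showed the fall, with changes of -2.38, -1.38 and -2.13. In this comparison 54 miRNAs (11.5%) were called, 20 of them higher and 34 (7.25%) lower at 18 h (27 and 24 with sample medians subtracted), and 1 miRNA had a more negative change than miR-3091-3p. The limma test still passed without replicate 2 (-2.25, adjusted p = 0.00724), but not without replicate 1 (-1.75, adjusted p = 0.0586) or without replicate 4 (-1.88, adjusted p = 0.0689).

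The earlier steps were smaller. At 6 h the change from 2 h in the Ikaros line was -0.86 (SE 0.46, adjusted p = 0.968), and by the same limma test no miRNA was called (0.0%), with 20 of 469 at an unadjusted p under 0.05. It was the third lowest change of the 469, with batches at -1.09, -0.29 and -1.20. At 12 h the change was -0.79 (SE 0.46, adjusted p = 0.514), where 11 miRNAs (2.35%) were called, and the batches were at -1.38, 0.22 and -1.20. Between 18 h and 24 h, not tested, the values went down by a further 0.80 ± 0.19 (SD, n = 3).

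In the Control line the values at 18 h were 0.78 higher than at 2 h (SE 0.46, 95% interval -0.17 to 1.73, adjusted p = 0.725), with batches at 0.75, 1.12 and 0.48. No miRNA passed the test in this comparison (0.0%), and 32 had an unadjusted p under 0.05. At 24 h, not tested, the Control values were 1.62, 1.36 and 1.45 above those of 2 h in the 3 batches. Counted from 2 h, the line difference thus changed through lower values in the Ikaros line and higher values in the Control line. The Control part did not pass at 18 h and depends on the time it is counted from. Against its mean of 4.40 at 0 h, not tested, the Control line was lower at 18 h (4.16) and higher at 24 h (4.86). By the sequencing design given above, Control samples of 0 h and 24 h were mostly sequenced apart from those of 2 h to 18 h. Those of 0 h also came from other culture batches. The part of sequencing and culture batch in these Control changes was not tested.

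The change of the line difference from 2 h to 18 h was tested directly. It was -2.74 log2 units (SE 0.66, 95% interval -4.08 to -1.40, adjusted p = 0.0122), the lowest of the 469 miRNAs, where 19 (4.05%) were called, 8 higher and 11 (2.35%) lower (15 and 8 with sample medians subtracted). The limma test no longer passed without replicate 1 (-2.55, adjusted p = 0.126) or without replicate 4 (-2.81, adjusted p = 0.116). Without replicate 2 it was -2.87 (adjusted p = 0.0394).

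The profile of miR-3091-3p over the 12 group means was then compared with those of the other 468 miRNAs. The 5 with the highest Pearson r were miR-130b-3p (0.93), miR-1946b (0.93), miR-20a-5p (0.93), miR-6974-5p (0.93) and miR-20a-3p (0.92). The 5 with the lowest were miR-93-5p (-0.93), miR-25-3p (-0.90), miR-128-3p (-0.88), miR-22-3p (-0.88) and miR-1934-5p (-0.88). An r above 0.8 was reached by 50 miRNAs and one below -0.8 by 22, so these names head long lists. The 12 points share the same libraries and include the groups used in the selection. Over the 36 single samples r was 0.55 to 0.74 for the first 5 and -0.81 to -0.38 for the last 5. Ranked over the 36 samples, 0 of the first 5 names and 2 of the last 5 stayed on their list of 5. The names of the like list thus depend on the use of group means.

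The like profiles had a smaller span than miR-3091-3p. MiR-20a-5p, a growth-linked arm of the miR-17-92 cluster, went from 13.24 in the Ikaros line at 2 h to 12.75 at 18 h and 12.57 at 24 h. MiR-6974-5p, whose hairpin lies in an intron of Lta, the lymphotoxin alpha gene, went from 1.53 to 0.86 and 0.49. MiR-22-3p, among the opposite profiles, went from 12.48 to 13.29 and 13.73. MiR-93-5p, from the Mcm7 gene of a DNA replication helicase subunit, went from 13.91 to 14.26 and 14.43.

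The like and the opposite list hold miRNAs with the same seed. MiR-20a-5p (chr14:115044183-115044205, plus strand) and miR-93-5p (chr5:138165574-138165596, minus strand) belong to related clusters, and their sequences are shown because these 2 arms share bases 2 to 8 and had opposite r with miR-3091-3p.
mmu-miR-20a-5p: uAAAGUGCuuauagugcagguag
mmu-miR-93-5p: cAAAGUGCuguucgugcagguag

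**Figure D4:**
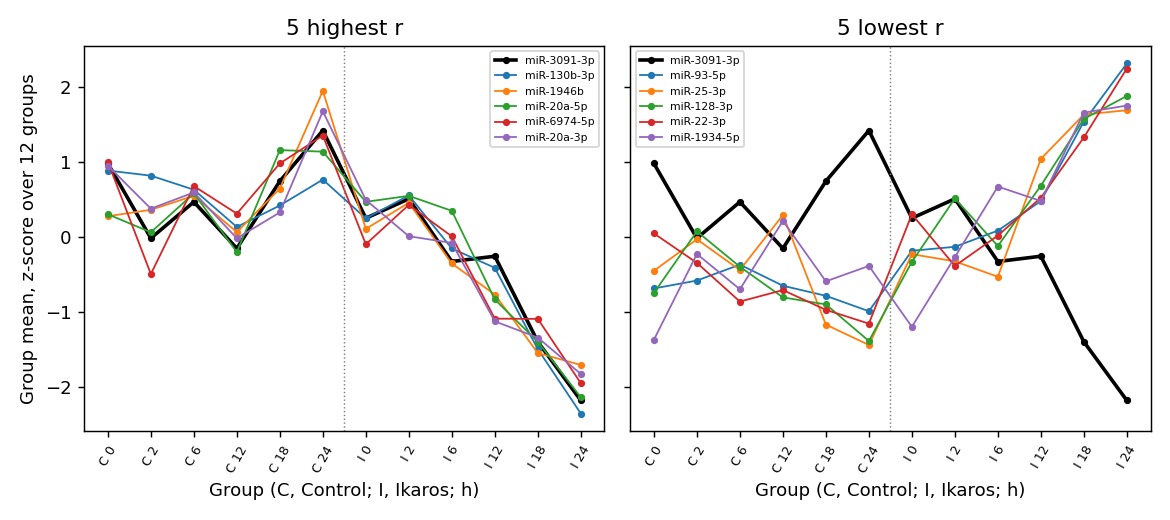
Group means of miR-3091-3p (black) and of the 5 miRNAs with the highest (left) and the lowest r (right), as z-scores over the 12 groups (y axis), for Control (C) and Ikaros (I) at each time in hours (x axis). In the left panel the lines go down together from Ikaros 12 h to 24 h, and in the right panel the others go up.

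The miR-17-92 cluster, which Myc activates and whose members favour growth and survival, was examined as a list of 12 arms, all measured. At 18 h 6 of the 12 were called lower in the Ikaros line and none higher, with a median difference of -0.89 against -0.01 over all 469 miRNAs, of which 16.8% were called lower. The passing arms were miR-17-5p, miR-19a-5p, miR-20a-5p, miR-20a-3p, miR-19b-1-5p and miR-92a-1-5p. With the median of each sample subtracted, 3 of the 12 were called lower, against 56 of all 469 (11.9%), and the list median was -0.72, where the median of all miRNAs was 0.16. In the Ikaros line 3 of the 12 were called lower at 18 h than at 2 h, where 7.25% of all miRNAs were, with a median change of -0.55 against -0.09 over all. For the change of the line difference from 2 h to 18 h 2 of the 12 were called, both lower, where 2.35% of all were called lower, with a median of -0.67 against -0.10. These counts of 6, 3 and 2 stand beside 79, 34 and 11 called lower among all 469. Without replicate 1 they became 3, 1 and 1, beside 51, 13 and 1 of all 469. Without replicate 2 they became 2, 1 and 1, beside 36, 7 and 2. Without replicate 4 they became 6, 2 and 2, beside 74, 24 and 4. Cluster members were prominent in earlier results of these data, so the list is no independent support.

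The arms of this cluster were not alike. MiR-92a-1-5p, the 5′ arm of a hairpin at the end of the cluster, was 2.51 lower at 18 h in the Ikaros line (SE 0.17, adjusted p = 1.7e-12) and was more negative than miR-3091-3p in that comparison. Its partner miR-92a-3p, which a second hairpin on another chromosome can also supply, was at 0.07 (SE 0.27, adjusted p = 0.864). MiR-19b-1-5p was 2.38 lower (SE 0.35, adjusted p = 3.6e-06). The intervals of miR-19a-3p and miR-19b-3p were the widest, with SEs of 1.33 and 1.27. Like miR-92a-3p, miR-19b-3p can also come from a second hairpin, on the X chromosome.

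**Figure D5:**
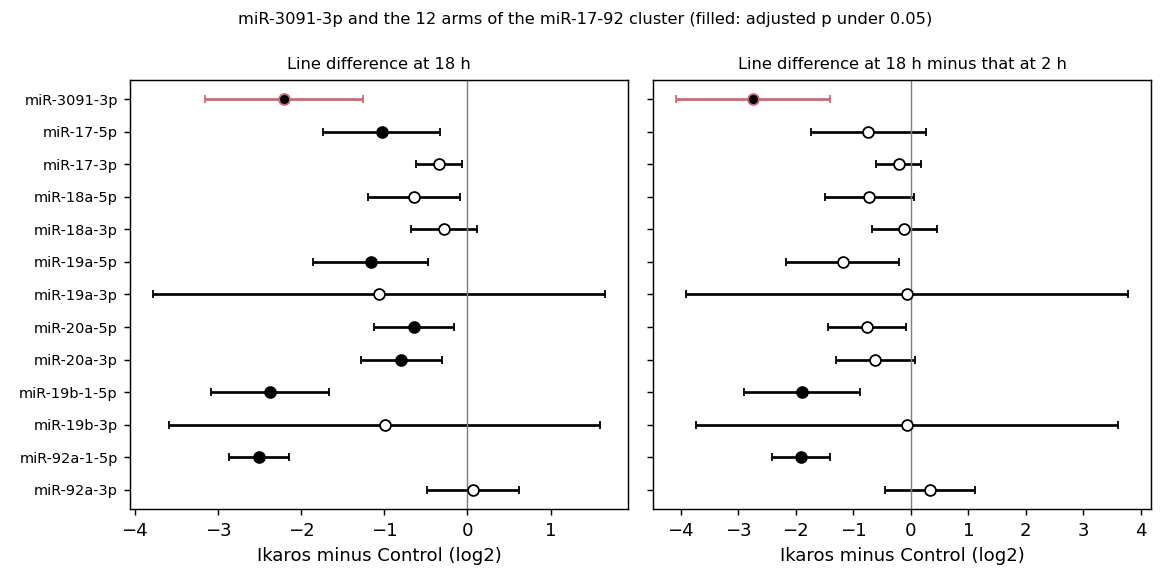
Ikaros minus Control in log2 units (x axis) at 18 h (left) and for the change of that difference from 2 h to 18 h (right), for miR-3091-3p (red) and the 12 arms of the miR-17-92 cluster (black), with 95% intervals from limma. Filled points passed the test: miR-3091-3p and 6 of the 12 arms on the left, miR-3091-3p and 2 of the 12 arms on the right.

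Other miRNAs with a like place in the genome were looked up, since 371 of the 469 had a hairpin in the RefSeq table. A hairpin in a gene of a cytosolic ribosomal protein (symbol Rps or Rpl) was found for 1 other, miR-5121, which lies in Rpl13a, the gene of a large-subunit protein, and within 10 bases of the 5′ end of an intron. It differed in direction from miR-3091-3p: in the Ikaros line it rose by 1.09 from 2 h to 18 h (SE 0.28, adjusted p = 0.00898), from 0.50 ± 0.12 to 1.59 ± 0.58 (SD, n = 3). Its line difference at 18 h was 0.70 (SE 0.28, adjusted p = 0.0605) and did not pass. The change of its line difference from 2 h to 18 h was 0.96 (SE 0.40, limma adjusted p = 0.164) and did not pass either. Its level is near the bottom of the table.

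The position of a mirtron without tails, with both hairpin ends within 10 bases of the ends of an intron, was found for 11 other measured miRNAs. At 18 h 1 of the 11 was called, miR-1981-5p (higher in the Ikaros line by 0.64), where 29.9% of all were called. The differences ran from -0.91 to 0.64, with a median of 0.21. The lowest was that of miR-6974-5p, one of the like profiles above (SE 0.36, limma adjusted p = 0.0544). With a replicate block, or without replicate 4, 1 of the 11 was called higher and 1 lower. With sample medians subtracted 2 were called higher and 0 lower. Hairpins that, like Mir3091, had only the 3′ end within 10 bases of an intron end gave 22 others, a list drawn up after the position of Mir3091 was known. At 18 h none of the 22 was called by limma and none had an unadjusted p under 0.05, with differences from -0.82 to 0.61 and a median of 0.03. These lists had median levels of 1.80 and 1.33 on the log2 scale, below the 3.40 of miR-3091-3p. Both medians were also below 1.85, the cut under which the lowest 25% of miRNAs lay. With that 25% left out of the fit, 134 of 351 miRNAs were called at 18 h, against 140 of all 469. Few calls thus came from such levels, and the counts of both lists are no result about hairpin position.

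The measured hairpins nearest to Mir3091 on chromosome 2 were Mir298 and Mir296, both 5.99 Mb before it, and Mir5622, 27.4 Mb before it. None of the measured hairpins located lay after it. Of their 4 arms 1 was called at 18 h, a share near the 29.9% of all miRNAs, so the count is no result about the neighbours. It was miR-298-5p, from the imprinted Gnas region, which was 0.79 lower in the Ikaros line (SE 0.23, adjusted p = 0.0109). In the Ikaros line miR-298-5p also fell by 0.91 from 2 h to 18 h (SE 0.23, adjusted p = 0.00837). The arms miR-296-3p, miR-296-5p and miR-5622-5p had line differences of 0.26, -0.69 and -0.10 at 18 h, which did not pass.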

How the data were processed

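The deposited log2 values of 469 miRNAs were used as the authors made them: per their methods, reads were aligned to miRBase mouse miRNAs with Novoalign, counted with multiBamCov, filtered by CPM, corrected for GC content with cqn, scaled by TMM, corrected for sequencing batch with ComBat, and technical replicates were averaged. The submitters' processing notes name mm10. ComBat can remove or leave part of a line difference where line and sequencing batch go together. Depth is unknown from this table.

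Contrasts were fitted with limma 3.58.1 (R 4.3.3; lmFit, eBayes with a trend) on all 36 samples, with a mean for each of 12 groups and Benjamini-Hochberg adjustment over 469 miRNAs. The code was tested on simulated data. The 9 tested contrasts compared group means of 2 h to 18 h only. The spread behind their SEs and p-values was estimated from all 36 samples, those of 0 h and 24 h included. Samples with the same number and time share a culture batch per the labels, and their deviations from group means correlated at 0.06 (18 h) to 0.41 (6 h). P-values measure the spread between culture batches of the same lines. MiR-3091-3p and the lists were chosen with earlier results of these data known. Named miRNAs were the miR-3091 arms, the 5 highest and 5 lowest r of the 12 group means, shared seeds, cytosolic ribosomal protein hosts, hairpins with both ends near intron ends, the 3 nearest hairpins on either side, and the miR-17-92 arms. Hairpins and sequences came from RefSeq (GRCm38.p6), genes from GENCODE vM21, the fold from RNAfold 2.7.2 and figures from matplotlib 3.10.9. Alternatives were other scalings, a replicate block, other fits and leaving out samples.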

Additional observations from a re-analysis of the deposited data

Results flagged for a closer look

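The change of the line difference of miR-3091-3p from 2 h to 18 h was -2.74 log2 units, past the threshold of limma's test of that difference itself (SE 0.66, adjusted p = 0.0122). It came with a change of -1.96 in the Ikaros line and of 0.78 in the Control line, and all 3 culture batches had a lower Ikaros minus Control difference at 18 h than at 2 h.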

How the results depend on the processing

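The line difference at 18 h stayed past the threshold under every alternative tried (scalings, fits, filter and samples left out), at -2.29 to -2.03. Without a replicate the 18 h minus 2 h change in the Ikaros line was -2.25 to -1.75 and the change of the line difference -2.87 to -2.55, and neither passed without replicate 1 or 4. The line difference at 12 h was -0.90 to 0.51 when a replicate was left out and turned positive without replicate 1 (0.06) or 4 (0.51). With a replicate block the call of miR-3091-3p changed in none of the 9 contrasts (18 h line difference -2.20, adjusted p = 2.6e-05). With sample medians subtracted the untested 24 h difference was -3.47. Of the 5 most like miRNAs 0 were the same over 36 samples, and of the 5 least like 2 were the same. Without Control 12 h replicate 2, a library left out after seeing the data, these counts were 2 and 4. Counts of called miRNAs moved more than the values of miR-3091-3p. With only the groups compared in the fit they were 16 in place of 53 for the lines at 2 h, 18 in place of 102 at 12 h, 0 in place of 11 for the Ikaros line at 12 h against 2 h, and 19 in place of 54 at 18 h against 2 h. Without a replicate number they went down to 18 to 34 at 2 h, 22 to 41 (from 71) at 6 h, 34 to 91 at 12 h, 69 to 125 (from 140) at 18 h, 0 to 3 for the Ikaros line at 12 h, 17 to 37 at 18 h and 3 to 7 (from 19) for the change of the line difference, and the Control line at 18 h against 2 h had 1 in place of 0 without replicate 2. The change of the line difference gave 31 calls without Control 12 h replicate 2, and the Ikaros line at 12 h gave 5 with sample medians subtracted. The sign of these calls was mixed differently under other scalings: 46 higher and 20 lower in place of 37 and 34 at 6 h with medians subtracted, and 24 and 27 in place of 34 and 19 at 2 h with quantile normalization. The number of reads behind each value is unknown, which limits statements on the low Ikaros values of 24 h.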
